A study of Mus musculus with 7 samples.

Results

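The platelet-derived growth factor (PDGF) family of the mouse comprises 4 ligand genes, *Pdgfa*, *Pdgfb*, *Pdgfc* and *Pdgfd*, and 2 receptor genes, *Pdgfra* and *Pdgfrb*, and all 6 were found by symbol among the 47729 genes of the count table. Their transcripts were compared between aortas labelled MMP19KO (KO, 3 libraries) and aortas labelled Wt (WT, 4 libraries). The *Mmp19* product is a matrix-cleaving protease outside the cell, and the series title places it in vascular smooth muscle, in protection from thoracic aortic aneurysm and dissection. Genotype was the only factor given. No source used here gives the *Mmp19* allele, the strain, the sex, the age, any treatment or the stretch of aorta. The labels also do not say whether every library stands for its own mouse, and p-values then measure only the spread between these 7 libraries, which may be technical.

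PDGF ligands are secreted dimers that bind receptor tyrosine kinases on mesenchymal cells. PDGF-A and PDGF-B are processed inside the cell and act on leaving it, whereas PDGF-C and PDGF-D are secreted in a latent form and need a protease to free the growth factor domain. The α receptor (*Pdgfra*) binds PDGF-A, PDGF-B and PDGF-C and marks fibroblasts. The β receptor (*Pdgfrb*) binds PDGF-B and PDGF-D and marks smooth muscle and pericytes, though not only these. PDGF-B from endothelium draws smooth muscle and pericytes to growing vessels. In arteries the family is best known for driving smooth muscle migration and growth after injury.

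Deposited counts summed to between 71061475 and 76926790 in KO libraries and between 68151472 and 75132809 in WT libraries. *Mmp19* itself was still counted, at 25.5, 12.0 and 15.9 CPM in KO replicates 1, 2 and 3, against 24.8, 24.8, 20.7 and 34.7 CPM in WT replicates 1 to 4 (log2 fold change -0.56, SE 0.29, edgeR quasi-likelihood adjusted p = 0.368). CPM here are counts brought to a common library size after TMM scaling. *Tmem198b*, on the other strand, shares 789 exonic bases with *Mmp19*, and a count per gene cannot tell which of its exons were present, so KO stands for the library labelled MMP19KO. KO replicate 1 stood apart from the other libraries, scoring 131 on the first principal component where KO replicates 2 and 3 scored 8.92 and 35.6 and WT libraries -78.9 to -28.9. The smooth muscle markers expected of aorta were present in all 7 libraries, at a summed 3710, 14700 and 7700 CPM in KO replicates 1 to 3, against 19400 to 21500 CPM in WT. Over all 19188 genes tested, edgeR's quasi-likelihood test called 3 genes higher in KO and 0 lower at an adjusted p under 0.05 (0.0156% of genes in either direction), while 3299 genes (17.2%) had an unadjusted p under 0.05 and DESeq2 called 1606 (8.37%).

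None of the 6 PDGF genes passed edgeR's quasi-likelihood test. In 1 of the 6, *Pdgfc*, the groups did not overlap, beside 16.7% of all genes in either direction. *Pdgfc* was 2-fold higher in KO. *Pdgfd*, the ligand with the highest level per length in WT, was low in KO replicates 1 and 3 and inside the WT range in KO replicate 2. *Pdgfa*, *Pdgfb* and both receptors had estimated folds between 0.881 and 1.13, with 95% intervals that lie between 0.662-fold and 1.49-fold. At an unadjusted p under 0.05, 1 of 6 PDGF genes stood higher, beside 9.92% of all genes, and 0 of 6 lower, beside 7.27%. DESeq2 called 1 of 6, *Pdgfc*, where it called 5.32% of all genes higher and 3.05% lower. With 50 counts required in at least 3 libraries, or with limma-voom, 0 of 6 were called, beside 0.0454% and 0.0365% of all genes.

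**Figure D1:**
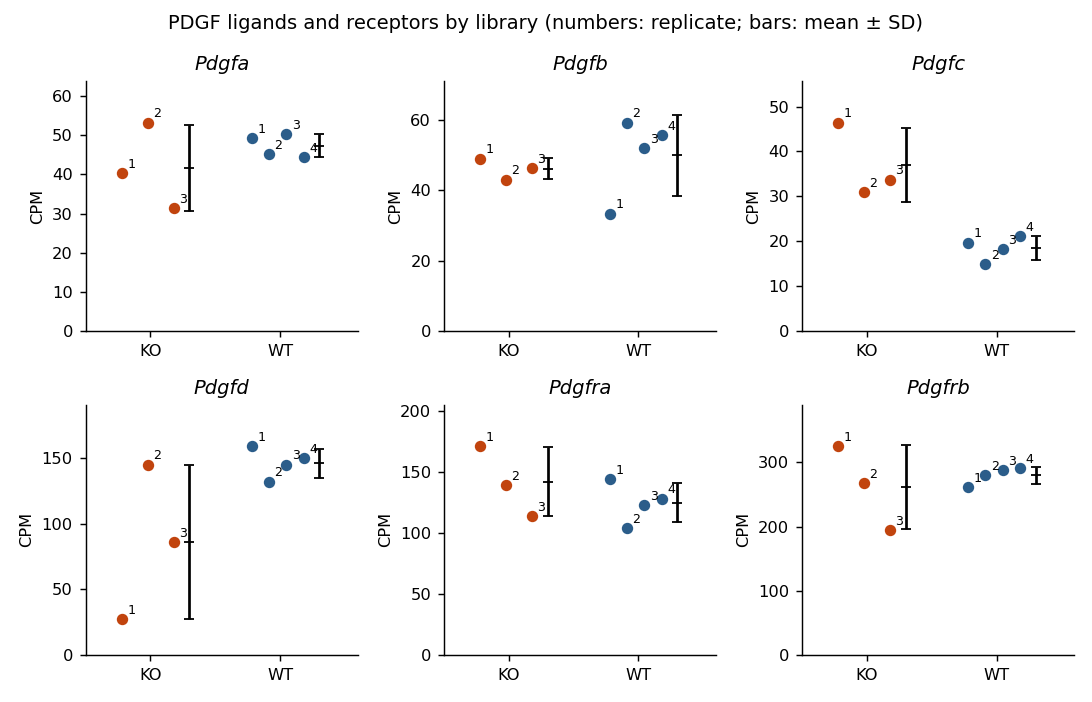
CPM (y axis) of each PDGF gene in 3 KO and 4 WT libraries, 1 point per library with its replicate number and the mean ± SD beside each group. For *Pdgfc* the lowest KO library (30.9 CPM) lies above the highest WT library (21.1 CPM), and for *Pdgfd* KO replicate 1 (27.4 CPM) lies far below the rest.

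*Pdgfc* encodes PDGF-C, a ligand of the α receptor that tissue plasminogen activator can free from its latent form. It lies on chromosome 3 (81036416 to 81214040, plus strand, GRCm38). KO replicates 1, 2 and 3 read 46.4, 30.9 and 33.7 CPM, against 19.7, 14.9, 18.3 and 21.1 CPM in WT replicates 1 to 4. Every KO library thus lay above every WT library, as was the case for 8.17% of all genes tested. The KO mean was 37 ± 8.26 CPM (SD, n = 3), against a WT mean of 18.5 ± 2.64 CPM (SD, n = 4). The log2 fold change was 1.00 (SE 0.18, 95% interval 0.57 to 1.43), with an unadjusted p of 0.000769 and an adjusted p of 0.165 in edgeR's quasi-likelihood test, and 0.412% of all genes had a smaller p. An exact permutation test, 2-sided, gave p = 0.0286, the smallest p that 3 against 4 libraries allow. DESeq2 gave an adjusted p of 0.000381. In edgeR the log2 fold change was 0.80 without KO replicate 1 (adjusted p = 0.285) and 1.17 without KO replicate 2, where it passed the threshold (edgeR adjusted p = 0.0321). Without that library 5.16% of all genes passed, 3.34% higher and 1.81% lower. An antisense gene, *Gm16000*, shares 147 exonic bases with *Pdgfc* but was at 0.0122 CPM or less in KO and 0.0407 CPM or less in WT.

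Macrophage transcripts were, like *Pdgfc*, highest in KO replicate 1. The 12 macrophage markers summed to 4150, 731 and 1330 CPM in KO, against 338 to 587 CPM in WT, and 11 of 12 lay higher in KO without overlap, beside 8.17% of all genes. None of them was at 0 in all libraries. The 10 striated muscle markers summed to 725, 820 and 177 CPM in KO replicates 1, 2 and 3, against 29.0 to 103 CPM in WT. The genes behind these sums differed between the KO libraries. *Myh6* read 411, 500 and 0.738 CPM in KO, against 2.35 to 47 CPM in WT. *Acta1* read 8.61, 0.857 and 61.6 CPM in KO, against 0.451 to 1.85 CPM in WT. The 12 fibroblast markers summed to 17100 to 25500 CPM in KO, against 13300 to 21800 CPM in WT. Per 1000 CPM of fibroblast markers, *Pdgfc* stood at 1.82, 1.73 and 1.97 CPM in KO, against 0.903, 1.12, 1.24 and 1.22 CPM in WT, without overlap. That sum is mostly collagen, with *Col1a1* at 9720 and *Col3a1* at 12800 CPM in KO replicate 1. The median log2 deviation of the 12 markers from the WT mean there was -0.31, where that of their sum was 0.60. Per 1000 CPM of macrophage markers it stood at 11.2, 42.3 and 25.3 CPM in KO, against 39.5, 34.8, 54.2 and 36 CPM in WT, so that by this ratio KO replicates 1 and 3 lay below the WT range. The part of these cell types in the *Pdgfc* values was not tested.

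The genes whose profile over the 7 libraries lay closest to that of *Pdgfc* were searched among 11716 candidates with a mean of 5 CPM or more, by the root mean square difference of mean-centred log2 CPM. Closest was *Rab31*, a small GTPase of membrane traffic, at a difference of 0.0768. It read 106, 72.6 and 82.6 CPM in KO, against 51.0, 39.7, 44.9 and 48.4 CPM in WT. *Lbhd1* (0.106) and *9930111J21Rik1* (0.112) followed. The name of *9930111J21Rik1* marks it as 1 of several numbered copies, between which reads may be split. All of these, like *Pdgfc*, had their highest level in KO replicate 1 and no overlap between the groups, which follows from their choice by likeness to *Pdgfc*. Of all genes tested, 8.17% lay higher in KO without overlap.

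*Pdgfd* encodes PDGF-D, a ligand of the β receptor that urokinase can free from its latent form. It lies on chromosome 9 (6168584 to 6378850, plus strand, GRCm38). KO replicates 1, 2 and 3 read 27.4, 145 and 86.1 CPM, against 159, 132, 145 and 150 CPM in WT replicates 1 to 4. Within KO the level ranged 5.28-fold, where the WT libraries stayed within 1.21-fold, and the groups overlapped through KO replicate 2. The KO mean was 86.0 ± 58.6 CPM (SD, n = 3), against a WT mean of 146 ± 11.3 CPM (SD, n = 4). The log2 fold change was -0.77 (SE 0.47, 95% interval -1.86 to 0.33, edgeR adjusted p = 0.442). The exact permutation test gave p = 0.0571. Without KO replicate 1 the log2 fold change was -0.35, and without KO replicate 2 it was -1.33 (edgeR adjusted p = 0.596 and 0.125).

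*Pdgfd* and the smooth muscle markers had the same order in the KO libraries, and a like size in KO replicate 1 alone. Relative to the WT mean, on a log2 scale, *Pdgfd* stood at -2.42, -0.02 and -0.77 in KO replicates 1, 2 and 3, and the summed CPM of the 10 markers at -2.46, -0.47 and -1.41. Per 1000 CPM of these markers there were 7.38, 9.84 and 11.2 CPM of *Pdgfd* in KO, against 7.47, 6.79, 7.44 and 6.97 CPM in WT. By this ratio KO replicate 1 was inside the WT range and KO replicates 2 and 3 were above it. Of the 10 markers, 9 lay lower in every KO library than in any WT library, as did 8.56% of all genes, and none was at 0 in all libraries. In RNA of whole aorta, fewer cells of a type and less RNA per cell cannot be told apart, and the part of smooth muscle content in the *Pdgfd* values was not tested. The profiles closest to that of *Pdgfd* were those of *Klhl38*, *Ntf3*, which encodes the growth factor neurotrophin-3, and *Dstn*, which encodes the actin-severing protein destrin, at root mean square differences of 0.123, 0.138 and 0.142. *Dstn* read 380, 1680 and 917 CPM in KO, against 2130, 1860, 1940 and 2060 CPM in WT.

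**Figure D2:**
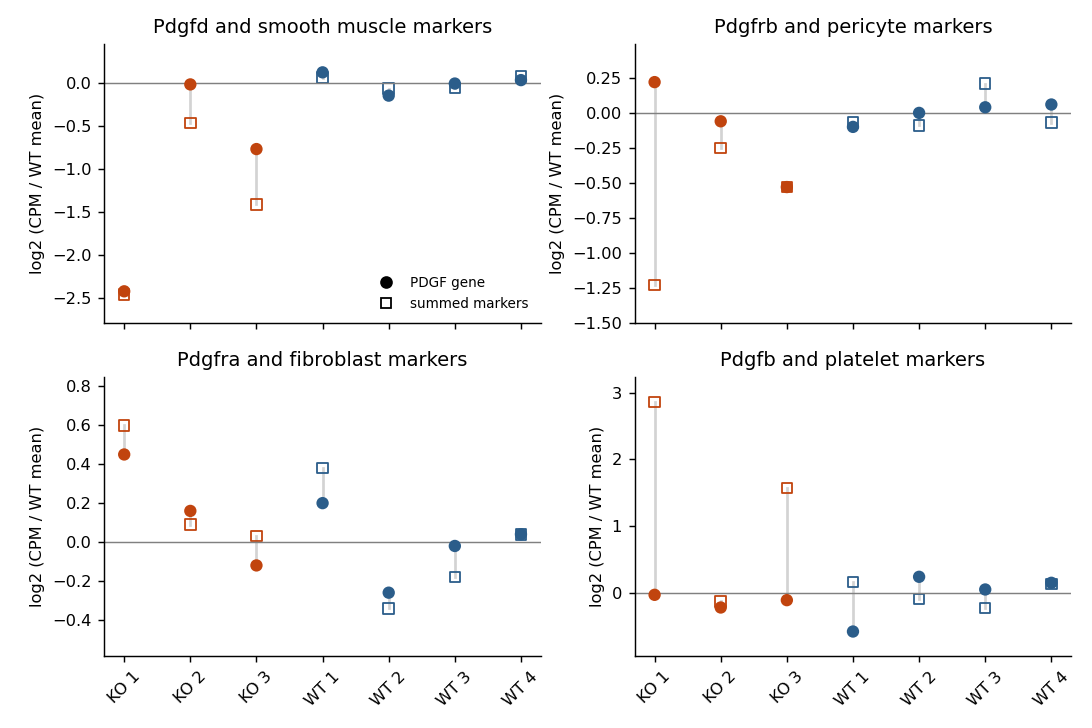
Level of 4 PDGF genes (filled circles) and of the summed markers of a cell type (open squares) in each KO and WT library, as log2 of CPM over the WT mean (y axis). *Pdgfd* and the smooth muscle markers both lie lowest in KO replicate 1 (-2.42 and -2.46), whereas *Pdgfrb* there is at 0.22 with the pericyte markers at -1.23, and *Pdgfb* is at -0.03 with the platelet markers at 2.86.

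The promoters of *Pdgfc* and *Pdgfd* are shown because these ligands had the largest fold changes of the 6 genes, with opposite signs. Each window runs from 250 bases before to 50 after the start in RefSeq (GRCm38.p6), on the plus strand, at chr3:81036166-81036465 for *Pdgfc* and chr9:6168236-6168535 for *Pdgfd*, and capitals mark motif matches.
Pdgfc: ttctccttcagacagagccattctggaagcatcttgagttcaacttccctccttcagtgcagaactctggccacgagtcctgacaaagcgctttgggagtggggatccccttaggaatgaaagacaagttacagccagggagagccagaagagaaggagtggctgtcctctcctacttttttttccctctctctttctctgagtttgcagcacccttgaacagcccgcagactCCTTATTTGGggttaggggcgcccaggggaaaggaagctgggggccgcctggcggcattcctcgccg
Pdgfd: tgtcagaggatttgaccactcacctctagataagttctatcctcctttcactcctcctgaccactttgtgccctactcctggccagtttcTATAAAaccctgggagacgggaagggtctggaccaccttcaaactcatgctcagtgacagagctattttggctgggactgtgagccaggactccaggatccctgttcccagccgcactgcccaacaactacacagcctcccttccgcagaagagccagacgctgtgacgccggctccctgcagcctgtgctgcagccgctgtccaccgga
The motifs searched on both strands were the GC box GGGCGG, the early growth response (EGR) site GCGNGGGCG, the AP-1 site TGANTCA, the TATA box TATAAA and the CArG box, which serum response factor binds, and an EGR site can overlap a GC box. Windows of 4 of the 6 genes were used, *Pdgfa*, *Pdgfc*, *Pdgfd* and *Pdgfra*, of which that of *Pdgfra* held no match. No window was given for *Pdgfb*, and *Pdgfrb* was left out of the search. The *Pdgfc* window held 1 match, a CArG box that starts at position -17, and 1.63% of the 32841 promoter windows of this length hold one. The *Pdgfd* window held 1 match, a TATA box at position -160, a motif present in 13.6% of windows. Neither window held a GC box (35.7% of windows), an EGR site (5.55%) or an AP-1 site (7.81%). Their GC contents of 55% and 56.7% lay near the median of 52.7%, where the windows at both starts of *Pdgfa* had 67.0% and 73.3%, with 1 and 2 GC boxes. A match describes letters only and is not evidence of binding.

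The mix of ligands differed most between KO replicate 1 and the WT libraries. Levels of different genes were compared per kilobase of exon, with all exons of a gene joined. *Pdgfd* made up 20.4%, 57.8% and 49.5% of the summed ligand level in KO replicates 1, 2 and 3, against 64.5%, 56.9%, 58.9% and 59.9% in WT replicates 1 to 4. *Pdgfc* made up 21.5%, 7.65% and 12.0% in KO, against 4.96%, 4.00%, 4.59% and 5.24% in WT. KO libraries thus held a larger *Pdgfc* share than any WT library, most of all KO replicate 1, in which the level of *Pdgfc* was 1.05 times that of *Pdgfd*. That ratio was 0.132 in KO replicate 2 and 0.243 in KO replicate 3, against 0.0703 to 0.0874 in WT. The summed ligand level was 42.5, 79.3 and 55.1 CPM per kilobase in KO, against 73.4 to 79.2 CPM per kilobase in WT. It was below the WT range in KO replicates 1 and 3, and in KO replicate 2 just above the highest WT library. No p is given for these shares, since they combine PDGF genes whose levels were already known.

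**Figure D3:**
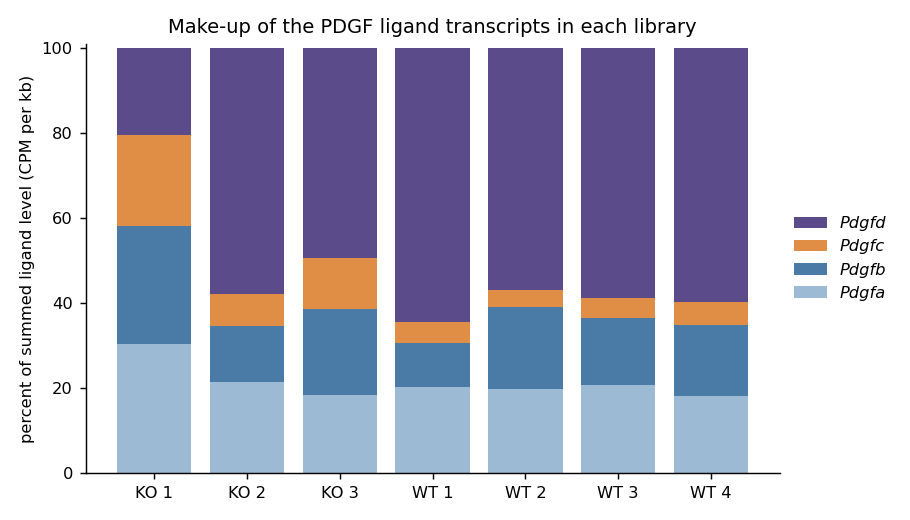
Share of each PDGF ligand in the summed ligand level of a library (y axis, percent of CPM per kilobase), for 3 KO and 4 WT libraries. The *Pdgfd* segment is 20.4% in KO replicate 1, against 56.9% or more in WT, and the *Pdgfc* segment is 7.65% or more in KO, against 5.24% or less in WT.

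*Pdgfa* encodes PDGF-A, the α receptor ligand secreted in active form. It lies on chromosome 5 (138976014 to 138997370, minus strand, GRCm38). Its levels were 40.3, 53.2 and 31.4 CPM in KO replicates 1, 2 and 3, against 49.3, 45.2, 50.3 and 44.4 CPM in WT replicates 1 to 4. KO libraries lay on both sides of the narrow WT range. The log2 fold change was -0.18 (SE 0.18, 95% interval -0.59 to 0.23, edgeR adjusted p = 0.635), and -0.17 without KO replicate 1. The exact permutation test gave p = 0.314. The antisense gene *6330403L08Rik* shares 813 exonic bases with *Pdgfa*, and its own level was 14.2 to 23.6 CPM in KO, against 29.2 to 35.3 CPM in WT. The strand setting of the counting is not given in the sources used here, so reads of this pair cannot be told apart.

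*Pdgfb* encodes PDGF-B, which binds both receptors and comes from endothelium, platelets and macrophages. It lies on chromosome 15 (79995874 to 80014977, minus strand, GRCm38). KO replicates 1, 2 and 3 read 49.0, 43.0 and 46.3 CPM, against 33.4, 59.2, 51.9 and 55.6 CPM in WT replicates 1 to 4. All KO values lay within the WT range, whose low end was WT replicate 1. The log2 fold change was -0.12 (SE 0.20, 95% interval -0.57 to 0.34, edgeR adjusted p = 0.793), and -0.17 without KO replicate 1. The exact permutation test gave p = 0.771. Markers of its known source cells differed between the libraries in opposite directions. The 9 platelet markers summed to 170, 21.5 and 69.7 CPM in KO, against 20.0 to 26.2 CPM in WT, and no marker was at 0 in all libraries. The 12 endothelial markers summed to 1070, 1720 and 1750 CPM in KO, against 1630 to 1780 CPM in WT. KO replicate 1 was thus lowest in the endothelial sum. The median log2 deviation of the 12 endothelial markers there was -0.35. *Cdh5*, *Esam*, *Emcn*, *Erg* and *Robo4* lay inside the WT range, and the other endothelial markers below it. The platelet sum there was mostly *Pf4*, at 125 CPM, and 7 of the 9 platelet markers were higher in KO replicate 3. In KO replicate 1, *Gp1bb* (1.85 CPM) lay below its WT range of 2.92 to 3.99 CPM. *Gp1ba* (0.766 CPM) also lay below its own, 1.79 to 2.26 CPM, and the other platelet markers lay above theirs. In KO replicate 1, *Pdgfb* was at -0.03 relative to the WT mean on the log2 scale, with the endothelial sum at -0.69, the macrophage sum at 3.16 and the platelet sum at 2.86. The part of these cell types in the *Pdgfb* values was not tested.

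*Pdgfra* encodes the α receptor. It lies on chromosome 5 (75152292 to 75198215, plus strand, GRCm38). KO replicates 1, 2 and 3 read 171, 139 and 114 CPM, against 144, 104, 123 and 128 CPM in WT replicates 1 to 4. The groups overlapped, with KO replicate 1 above all WT libraries. The log2 fold change was 0.18 (SE 0.17, 95% interval -0.21 to 0.58, edgeR adjusted p = 0.62), and 0.02 without KO replicate 1. The exact permutation p was 0.4. Per 1000 CPM of the 12 fibroblast markers there were 6.72, 7.79 and 6.68 CPM of *Pdgfra* in KO, against 6.59, 7.85, 8.32 and 7.43 CPM in WT, so the ratio stayed inside the WT range in all KO libraries. As above, this sum rests on *Col1a1* and *Col3a1*, and 6 of the other 10 markers lay below every WT library in KO replicate 1, the library in which *Pdgfra* was highest. The part of fibroblast content in the *Pdgfra* values was not tested.

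*Pdgfrb* encodes the β receptor. It lies on chromosome 18 (61045150 to 61085061, plus strand, GRCm38). KO replicates 1, 2 and 3 read 325, 268 and 194 CPM, against 261, 280, 288 and 291 CPM in WT replicates 1 to 4. KO libraries lay above, inside and below the WT range. The log2 fold change was -0.09 (SE 0.18, 95% interval -0.51 to 0.33, edgeR adjusted p = 0.825), and -0.28 without KO replicate 1. The exact permutation test gave p = 0.657. In KO replicate 1, where *Pdgfrb* was highest, the 10 pericyte markers summed to 1040 CPM and the smooth muscle markers to 3710 CPM. The WT ranges were 2290 to 2810 CPM and 19400 to 21500 CPM. Most of that pericyte sum was *Rgs5*, *Cspg4*, *Mcam* and *Abcc9*. The median log2 deviation of the 10 pericyte markers there was -0.82, where that of their sum was -1.23, and *Ndufa4l2* lay above the WT range. Per 1000 CPM of smooth muscle markers, *Pdgfrb* stood at 87.6, 18.2 and 25.2 CPM in KO, against 12.3, 14.4, 14.8 and 13.5 CPM in WT. Per 1000 CPM of pericyte markers it stood at 313, 131 and 115 CPM in KO, against 112, 122, 102 and 125 CPM in WT, which puts KO replicate 3 among the WT values. *Pdgfrb* was not set against the fibroblast markers, which summed to 25500 CPM in KO replicate 1, against 13300 to 21800 CPM in WT. The part of cell content in the *Pdgfrb* values was not tested.

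**Figure D4:**
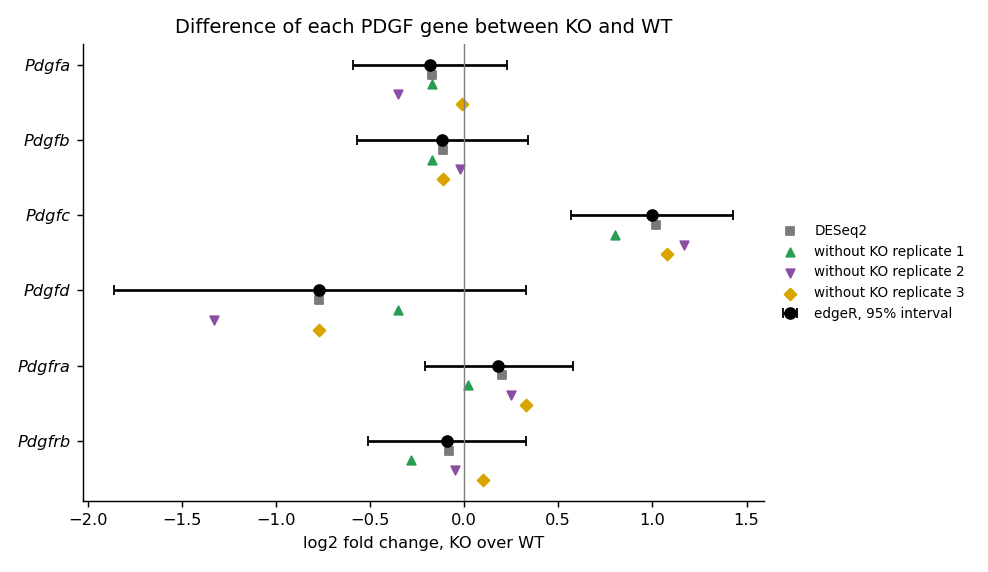
Log2 fold change of each PDGF gene, KO over WT (x axis), from edgeR with its 95% interval, from DESeq2 and from edgeR with 1 KO library left out. The interval of *Pdgfc* (0.57 to 1.43) lies above 0, whereas those of the other 5 genes include 0 and that of *Pdgfd* (-1.86 to 0.33) is the widest.

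Ordered by level per length in WT, the β receptor came first at 51.1 ± 2.50 CPM per kilobase (SD, n = 4). *Pdgfd* (46.4 ± 3.57) came next, and its range overlapped that of the receptor. Then came *Pdgfa* (15.2 ± 0.945), *Pdgfra* (12.5 ± 1.62) and *Pdgfb* (12.0 ± 2.76), of which each overlapped its neighbour, and *Pdgfc* came last at 3.64 ± 0.52, below all of them in every WT library. In KO the means were 47.9 ± 12.0 for *Pdgfrb*, 27.3 ± 18.6 for *Pdgfd*, 14.1 ± 2.82 for *Pdgfra*, 13.4 ± 3.52 for *Pdgfa*, 11.1 ± 0.725 for *Pdgfb* and 7.27 ± 1.62 for *Pdgfc* (SD, n = 3), in CPM per kilobase. The KO range of *Pdgfd*, 8.68 to 45.9, overlapped those of all 5 other genes. The level of *Pdgfra* was 0.287, 0.284 and 0.322 times that of *Pdgfrb* in KO, against 0.301, 0.204, 0.233 and 0.241 times in WT. The receptor ratio thus overlapped between the groups through WT replicate 1.

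Proteins that process, hold or present the ligands were described from a list of 12 genes. No gene of it passed edgeR's test, 2 had an unadjusted p under 0.05, both higher in KO (beside 9.92% of all genes), its median log2 fold change was 0.14 where that of all genes was -0.03, and 9 of 12 values were positive. *Plau*, which encodes urokinase, read 31.9, 18.5 and 23.7 CPM in KO, against 9.47, 13.6, 12.4 and 14.7 CPM in WT. Its log2 fold change of 0.98 (SE 0.23) was close to that of *Pdgfc* in size, the groups did not overlap, and it missed edgeR's threshold (adjusted p = 0.17) while DESeq2 called it (adjusted p = 0.00485). *Thbs1*, thrombospondin 1, which can bind PDGF, read 2090, 464 and 850 CPM in KO, against 394, 239, 174 and 181 CPM in WT (edgeR adjusted p = 0.171, DESeq2 adjusted p = 0.001). Its log2 fold change was 2.20, and 1.41 without KO replicate 1. *Plau* and *Thbs1* ranked the KO libraries as the macrophage markers did, whose part in these values was not tested. *Ndst1*, an enzyme of the heparan sulfate chains that retain PDGF-B, lay lower in all KO libraries, at 94.2 to 124 CPM against 128 to 139 CPM in WT (edgeR adjusted p = 0.32). *Plat*, tissue plasminogen activator, named here for its role with its value known, averaged 70.1 ± 10.7 CPM in KO, against 57.1 ± 9.07 CPM in WT, with overlap (edgeR adjusted p = 0.39).

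The 37 listed adaptors and effectors of the receptors centred on a median log2 fold change of 0.08, with 24 positive and 13 negative. EdgeR called 0, and 6 had an unadjusted p under 0.05, all higher in KO, beside 9.92% of all genes. DESeq2 called 3 higher, *Nras* and *Stat3* among them, and 0 lower, beside 5.32% and 3.05% of all genes. *Stat3*, a transcription factor that cytokine receptors also activate, read 286, 156 and 223 CPM in KO, against 152, 134, 124 and 132 CPM in WT (edgeR adjusted p = 0.185). *Nras*, a Ras switch between receptor and MAP kinases, averaged 69.0 ± 14.3 CPM in KO, against 48.2 ± 0.893 CPM in WT (edgeR adjusted p = 0.181). Without overlap, 6 of the 37 genes lay higher and 2 lower in KO, beside 8.17% and 8.56% of all genes. *Nras* and *Stat3* also ranked the KO libraries as the macrophage markers did, whose part was not tested.

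Among 18 negative regulators the median log2 fold change was 0.38, 15 values were positive and 5 lay higher in KO without overlap, beside 8.17% of all genes. EdgeR called 0, with 7 higher at an unadjusted p under 0.05, beside 9.92% of all genes. DESeq2 called 3 higher, *Socs3*, *Ptpn6* and *Dusp6*, beside 5.32%. *Socs3*, an inhibitor that cytokine signalling induces, read 109, 17.5 and 78.1 CPM in KO, against 6.56 to 12.4 CPM in WT. Its log2 fold change was 2.76 (SE 0.55, edgeR adjusted p = 0.165). *Ptpn6*, a phosphatase of blood cells, read 98.0, 10.3 and 22 CPM in KO, against 3.47 to 8.97 CPM in WT (edgeR adjusted p = 0.175). Its log2 fold change was 2.88, and 1.45 without KO replicate 1. *Spred1*, an inhibitor of Ras to MAP kinase signalling, averaged 72.8 ± 18.7 CPM in KO, against 46.3 ± 7.34 CPM in WT (edgeR adjusted p = 0.192). The order of the KO libraries for *Socs3*, *Ptpn6* and *Spred1* was that of the macrophage markers, whose part in these values was not tested.

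Early response genes, those that PDGF induces within a short time in cultured fibroblasts, showed values in both directions, 12 positive and 12 negative, with a median log2 fold change of -0.09. EdgeR called 0 of 24, with 6 higher and 4 lower at an unadjusted p under 0.05, beside 9.92% and 7.27% of all genes. DESeq2 called 5 higher, *Egr2*, *Ccl2*, *Ccl7*, *Cxcl1* and *Has2*, and 2 lower, *Nr4a1* and *Srf*, beside 5.32% and 3.05%. *Egr2*, a zinc finger transcription factor, read 9.21, 5.18 and 8.84 CPM in KO, against 2.52 to 3.40 CPM in WT (log2 fold change 1.38, SE 0.26, edgeR adjusted p = 0.165). *Srf*, serum response factor, read 59.2, 63.6 and 54.5 CPM in KO, against 92.0, 84.3, 79.0 and 86.7 CPM in WT (log2 fold change -0.53, SE 0.10, edgeR adjusted p = 0.165), without overlap. *Ccl7*, a monocyte chemokine, read 39.9, 1.70 and 41.1 CPM in KO, against 0.43 to 3.15 CPM in WT, with KO replicate 2 among the WT values (edgeR adjusted p = 0.174). *Fos* and *Egr1*, chosen here after their values were seen, averaged 39.8 ± 17.8 and 91.5 ± 23.4 CPM in KO. Within WT they ranged widely, from 6.79 to 118 CPM for *Fos* and from 55.1 to 259 CPM for *Egr1*.

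**Figure D5:**
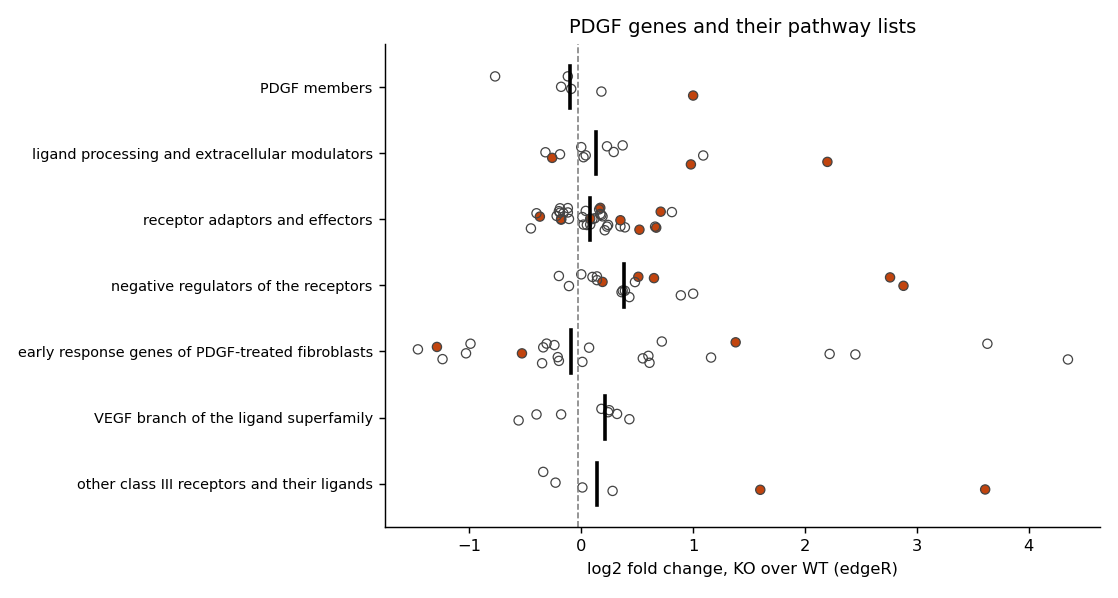
Log2 fold change, KO over WT by edgeR (x axis), of the PDGF genes and of each listed gene of the pathway and of related families, 1 point per gene, filled where the KO and WT libraries do not overlap, with the list median as a bar and the median of all genes (-0.03) as a dashed line. The medians lie between -0.09 and 0.38 for the pathway and related lists, and edgeR called none of the genes shown.

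The nearest relatives of the family are the vascular endothelial growth factors (VEGF), which share the ligands' fold, and the other receptors of the same structural class. In the VEGF branch, 0 of 8 genes were called by edgeR or DESeq2, beside 0.0156% and 8.37% of all genes. An unadjusted edgeR p under 0.05 was found for 0, beside 17.2% of all genes. Groups without overlap were found for 0, beside 16.7%. The median log2 fold change of the branch was 0.21. *Vegfd* averaged 25.7 ± 2.83 CPM in KO, against 20.6 ± 2.24 CPM in WT, with overlap. *Vegfb* stood at 43.0 ± 16.4 CPM in KO libraries, against 63.5 ± 14.6 CPM in WT. *Kdr*, the main VEGF receptor of endothelium, stood at 91.2 ± 19.0 CPM in KO libraries, against 120 ± 36.2 CPM in WT. Both overlapped between the groups. Among 6 genes of the other class III receptors and their ligands, DESeq2 called 2 higher, *Csf1r* and *Flt3*, both blood cell receptors, beside 5.32% of all genes. *Csf1r*, the receptor of macrophages, read 415, 84.1 and 112 CPM in KO, against 52.1 to 78.9 CPM in WT (edgeR adjusted p = 0.211), and is itself 1 of the 12 macrophage markers. Its log2 fold change was 1.6, and 0.54 without KO replicate 1. *Flt3* read 10.6, 1.63 and 2.51 CPM in KO, against 0.0543 to 0.631 CPM in WT (edgeR adjusted p = 0.175), with a log2 fold change of 3.61, and 2.35 without KO replicate 1. *Kitl*, the ligand of KIT, averaged 53.9 ± 8.64 CPM in KO, against 63.2 ± 9.91 CPM in WT (edgeR adjusted p = 0.504). *Pdgfra* and *Pdgfrb* spanned 1.49-fold and 1.67-fold within KO.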

How the data were processed

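Total RNA of aorta was extracted with Trizol and libraries were made from 2 µg with a SMARTER kit, per the labels. The authors deposited 1 table of estimated counts, whole numbers without scaling, whose low values pile up at multiples of 4 (1.26 to 1.38 times their neighbours), so a count of 1 need not be 1 read. GRCm38 is named in the submitters' processing notes, and no source used here names the aligner, the counter or the strand setting. Positions and exon lengths come from GENCODE M21. Symbols come from a separate list of gene names, or from GENCODE M21 where that list had none, with 47310 of 47729 identifiers matched. All 7 columns were used.

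Genes were filtered with filterByExpr, which left 19188 with all PDGF genes passing, scaled by TMM and tested with edgeR 4.0.16 (glmQLFit, glmQLFTest, R 4.3.3, no covariates), adjusted by Benjamini-Hochberg over all genes. Log2 CPM used a prior count of 2. DESeq2 1.42.0, limma-voom (limma 3.58.1), other scalings and filters, a block for the replicate number and fits without 1 library were alternatives. The limma-voom fit gave each library a quality weight, so libraries did not count equally in it. The edgeR and DESeq2 steps were run on simulated counts with planted changes. These counts varied less between libraries than the real ones, so the run cannot show how often either tool errs here. No pair of libraries was identical (chi-square per gene 22.7 or more). The closest pair was KO replicate 2 and WT replicate 4. By this measure KO replicate 2 lay closer to every WT library (22.7 to 45.1) than to KO replicates 1 and 3 (163 and 53.4). PDGF counts ran from 1061 to 26745 per library, so counting error is small beside the spread between libraries, and intervals of log2 fold changes come from edgeR's standard error. Named genes were the PDGF genes, the 3 genes of smallest p of each pathway list, the 2 most abundant of each marker list, and the 3 closest profiles of each PDGF gene spanning a log2 range of 1 or more. Others were named after their values were seen, and some genes that the rule names are not reported here. The genes and lists were chosen with earlier results of these data known.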

Additional observations from a re-analysis of the deposited data

Results flagged for a closer look

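In 47 genes named by rule, the 4 WT libraries were searched for 1 far from the rest by Dixon's ratio, which chance exceeds in about 1 in 20 groups. None of the 6 PDGF genes was found. In 4 other genes, the highest WT library stood apart: *Nras* at 49.5 CPM, *Kitl* at 77.9 CPM, the platelet gene *Ppbp* at 3.45 CPM, and *Ntf3*, whose profile was close to that of *Pdgfd*, at 27.5 CPM. For *Nras* the other WT libraries were all at 47.7 CPM.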

How the results depend on the processing

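The count of genes called, 3 with all higher, was the same with DESeq2's size factors or upper-quartile scaling in edgeR. It was 0 without a filter or with the replicate block, 7 (all higher) with 50 counts required in at least 3 libraries or with limma-voom, and 1606 with DESeq2 (1020 higher, 586 lower). Leaving out 1 library gave 0 to 1029 genes, 0 to 667 higher and 0 to 362 lower, the upper values without KO replicate 2. The number of PDGF genes called, 0, was 1 with DESeq2 and 0 to 1 with 1 library left out, 1 being *Pdgfc* without KO replicate 2. The replicate numbers did not pair the libraries (correlations of same-numbered deviations 0.0545, 0.0691 and 0.34), and under the replicate block *Pdgfc* had a log2 fold change of 1.06 (edgeR adjusted p = 0.448). Over all settings the log2 fold change of *Pdgfc* ran from 0.80 to 1.17 and that of *Pdgfd* from -1.33 to -0.35. The exact permutation test passed 1 PDGF gene with all libraries and 0 with any 1 left out, where the smallest p possible is 0.0667 or 0.1. It was run on the PDGF genes alone. With all libraries it can pass only genes whose groups do not overlap, and 16.7% of all genes had no overlap. The sign changed when 1 library was left out for *Pdgfb* (-0.24 to 0.01), *Pdgfrb* (-0.28 to 0.10) and, among marker genes, *Rgs5* (-0.46 to 0.05), *Fabp4* (-0.16 to 0.43) and *Mbp* (-0.54 to 0.84). It also changed with limma-voom for *Rgs5* (0.11), *Actc1* (-0.16) and *Mbp* (0.65). None of these was called. With the longest transcript as length, WT means were shares of 25.0% for *Pdgfa*, 5.71% for *Pdgfc*, 50.8% for *Pdgfd* and a ratio of 0.112 for *Pdgfc* over *Pdgfd*, and *Pdgfra* over *Pdgfrb* was 0.433 in KO and 0.356 in WT. The causes were not tested.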
